A study of Mus musculus with 21 samples.

Results

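The 10 genes described here encode α- and β-tubulin, the subunits of microtubules. They were listed by name, because their mRNAs belong to the class whose decay is autoregulated through the CCR4-NOT complex. The list itself sets no threshold on a measured value, and it was drawn up with earlier results of these data known. Each symbol was matched to its Ensembl identifier in both count tables, and all 10 of 10 members were found among 51467 genes. All 10 were also among the 14518 genes that passed the filter of at least 3 CPM (counts scaled to a common library total) in at least 3 libraries. The members are 4 α-tubulin genes (*Tuba1a*, *Tuba1b*, *Tuba1c* and *Tuba4a*) and 6 β-tubulin genes (*Tubb2a*, *Tubb2b*, *Tubb3*, *Tubb4b*, *Tubb5* and *Tubb6*).

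Cells adjust tubulin mRNA to the amount of free tubulin. When unpolymerised tubulin accumulates, TTC5 recognises the first amino acids of nascent tubulin as they leave the ribosome, SCAPER is recruited, and CCR4-NOT removes the poly(A) tail of the mRNA that is being translated. DDX6 is an RNA helicase of P-bodies that binds CNOT1, the scaffold of CCR4-NOT, and links the complex to translational repression and decapping. Tubulin itself folds with the help of prefoldin, the CCT chaperonin and a set of dedicated cofactors.

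The cells were V6.5 mouse embryonic stem cells (ESCs), a line grown here in serum with LIF and the 2 inhibitors PD0325901 and CHIR99021. The wild-type group had 3 cultures and the *Ddx6* KO group had 4, with 2 cultures of each of 2 clones made with CRISPR-Cas9. Per the study's text, one clone carries an insertion of 1 nucleotide and the other a large deletion, and both leave a premature stop. Each clone is a single line, so 4 cultures stand for 2 lines. Every culture, wild type included, was labelled with 500 µM 4-thiouridine (4sU) for 30 min, and its RNA was then divided into a 4sU pulldown, which holds nascent RNA, and total RNA. This gave 14 libraries. Nothing in the labels says that cultures of a group were started separately, so p values measure the spread between these cultures. *Ddx6* KO was compared with wild type separately in 4sU and in total RNA. A change in mRNA stability means here that the ratio of total to 4sU RNA changed between genotypes, tested as an interaction term in the same model.

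The smallest 4sU library held 2441639 counts and the largest 3570192, while total RNA libraries held 5724179 to 7369651. *Ddx6* itself had 314, 357 and 363 CPM in wild-type total RNA, 59.6 and 70.7 CPM in clone 1, and 23.9 and 22.5 CPM in clone 2. In 4sU it had 225, 226 and 251 CPM in wild type, 240 and 245 CPM in clone 1, and 175 and 155 CPM in clone 2. These levels and the marker levels below are scaled to the library total only. On the scale of TMM, the normalization of the fit, every *Ddx6* KO culture lay below wild type in 4sU. The nascent log2 difference was -0.41 (95% interval -1.12 to 0.30) and was not called (adjusted p = 0.348 from edgeR). All 8 ESC markers examined were measured. In total RNA they summed to 4561 to 4671 CPM in wild type and 4995 to 5194 CPM in *Ddx6* KO, but single markers went both ways. *Nanog* (log2 0.59), *Klf4* (0.37), *Esrrb* (0.22) and *Zfp42* (0.16) rose, *Tfcp2l1* (-0.51) and *Dppa5a* (-0.85) fell, and 2 were not called. The mean of *Nanog*, a gene on chromosome 6, was 593 CPM in wild type and 995 CPM in *Ddx6* KO. The 12 neural markers summed to 93.7 to 107 CPM in wild type and 43.4 to 61.5 CPM in *Ddx6* KO in total RNA, with *Snap25* and *Syt1* among those at 0 in both groups. Of the 6 that could be tested, *Nefl* and *Nefm*, which encode neurofilament subunits, fell, while *Neurod1* and *Elavl4* rose from few counts. *Neurod1* had 4 to 7 counts per wild-type and 14 to 19 per *Ddx6* KO library, and *Elavl4* 1 to 9 and 8 to 19. *Elavl4* reached 3 CPM in no wild-type library and passed the filter only through *Ddx6* KO. The 4 markers of primed epiblast summed to 131 to 144 CPM of wild-type and 83.3 to 94.4 CPM of *Ddx6* KO total RNA, and all 3 that could be tested fell. For 7 markers of primitive endoderm the range was 8.09 to 13.6 CPM in wild type against 12.7 to 19.1 CPM in *Ddx6* KO, and 2 of the 3 tested rose. Markers too low to test went both ways in mean total RNA. *Sox17* went from 1.82 CPM in wild type to 0.59 in *Ddx6* KO and *Gata6* from 0.72 to 0.29, while *Sox7* went from 0.05 to 0.29. The 7 fibroblast markers summed to 3.14 to 5.34 CPM in wild type and 11.3 to 13.1 CPM in *Ddx6* KO, with *Dcn* and *Postn* at 0 in total RNA of both. The 2 that could be tested, *Col1a1* and *Thy1*, rose in total RNA from these low levels, which limits what their calls mean. Neither was called in nascent RNA (adjusted p = 0.0573 and 0.055 from edgeR). Over all tested genes, 50.5% were called in total RNA, with 19.5% rising and 31.0% falling. TMM factors, which divide CPM, were 0.928 to 0.942 in wild-type and 1.03 to 1.05 in *Ddx6* KO total RNA. The summed marker levels of *Ddx6* KO therefore stand higher against wild type here than on the scale of the fit. The part of these marker levels in the results below was not tested.

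The sequence that the decay pathway reads lies at the very start of the coding region, so these starts are shown for 9 of the members, 5′ to 3′ on the coding strand. They come from the Gencode M21 transcripts of GRCm38. The first 4 codons, which encode the recognised peptide, are in capitals. In α-tubulin they read Met-Arg-Glu-Cys and in β-tubulin Met-Arg-Glu-Ile.
Tuba1a: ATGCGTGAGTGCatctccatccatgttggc
Tuba1b: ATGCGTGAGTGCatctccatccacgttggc
Tuba1c: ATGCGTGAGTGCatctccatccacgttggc
Tuba4a: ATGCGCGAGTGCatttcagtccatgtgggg
Tubb2a: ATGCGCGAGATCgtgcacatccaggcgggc
Tubb2b: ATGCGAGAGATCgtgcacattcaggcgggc
Tubb3: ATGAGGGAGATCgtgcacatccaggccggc
Tubb4b: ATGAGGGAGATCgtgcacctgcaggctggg
Tubb5: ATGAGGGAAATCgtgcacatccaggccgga

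The 4 α members all encode Met-Arg-Glu-Cys, and all 6 β members, *Tubb6* included, encode Met-Arg-Glu-Ile. Among 21782 protein-coding genes of the annotation, 9 begin with Met-Arg-Glu-Cys (0.0413%) and 8 with Met-Arg-Glu-Ile (0.0367%). Besides the members, the first group holds *Tuba3a*, *Tuba3b*, *Tuba8*, *Tubal3* and the gene model *Gm49450*, and the second holds *Tubb1* and *Tubb4a*. The codons behind the same peptide differ. *Tubb2a* and *Tubb2b* encode the second amino acid, arginine, with CGC and CGA, whereas *Tubb3*, *Tubb4b* and *Tubb5* use AGG. All of the listed members therefore carry the α or the β form of the recognised peptide, and no member below lacks it.

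*Tuba1a* (ENSMUSG00000072235.5, chr15:98949841-98953551, minus strand) is the α-tubulin most used by developing neurons. *Tuba1b* (ENSMUSG00000023004.8, chr15:98931425-98934565, minus strand) and *Tuba1c* (ENSMUSG00000043091.8, chr15:99029891-99038105, plus strand) are broadly expressed α-tubulins and lie beside it. *Tuba4a* (ENSMUSG00000026202.13, chr1:75214228-75219294, minus strand) encodes an α-tubulin that lacks the C-terminal tyrosine of the others. *Tubb2a* (ENSMUSG00000058672.7, chr13:34074274-34078007, minus strand) and *Tubb2b* (ENSMUSG00000045136.6, chr13:34126748-34130354, minus strand) are neighbours and are best known from brain. *Tubb3* (ENSMUSG00000062380.4, chr8:123411424-123422015, plus strand) is the neuronal β-tubulin. *Tubb4b* (ENSMUSG00000036752.4, chr2:25222160-25224702, minus strand) and *Tubb5* (ENSMUSG00000001525.10, chr17:35833921-35838306, minus strand) are broadly expressed, and *Tubb6* (ENSMUSG00000001473.6, chr18:67390717-67402748, plus strand) is usually a minor isotype. Positions are those of the count tables, on mm10. Each member has 4 exons in its main transcript, with coding sequences from 1335 to 1356 bases.

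Near-identical copies limit what can be counted. The coding sequences of *Tuba1a* and *Tuba1b* share 98.3% of their bases, *Tuba1b* and *Tuba1c* 97.9%, *Tuba1a* and *Tuba1c* 97.1%, and *Tubb2a* and *Tubb2b* 96.5%. The other pairs of β members share 80.2% to 86.0%. Only uniquely mapped reads were counted. Of all 50-base windows in annotated transcripts of a gene, 24.5% in *Tuba1a*, 24.9% in *Tuba1b*, 47.3% in *Tuba1c* and 50.4% in *Tubb2a* occur in no other annotated gene. The share was 58.7% in *Tubb4b*, 63.1% in *Tubb2b*, 64.6% in *Tuba4a*, 99.9% in *Tubb5*, and 100% in *Tubb3* and *Tubb6*. Levels of the first group are therefore uncertain, and their order among the members is given on both scales below.

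*Tubb5* was the most abundant tubulin RNA in every group. In wild-type total RNA it reached 1094 ± 22.5 CPM per kb of gene length (SD, n = 3), which lay above 99.9% of the tested genes. *Tubb4b* followed at 174 ± 3.87 CPM per kb and *Tubb2b* at 102 ± 5.89, and these 3 leading genes did not overlap each other. *Tubb6* had 74.5 ± 2.11 CPM per kb. *Tuba1a*, *Tuba1b*, *Tuba1c* and *Tuba4a* had 49.0 ± 1.80, 47.6 ± 2.58, 49.0 ± 2.46 and 42.9 ± 3.32 CPM per kb, and neighbours in this order did not differ beyond their spread. *Tubb3* had 39.2 ± 3.64 CPM per kb and *Tubb2a* was lowest on this scale at 27.2 ± 4.10. Per kb of windows that no other gene shares, *Tubb5* still led with 862 ± 17.7 CPM and *Tubb4b* came next with 228 ± 5.06. On that scale *Tuba1a* had 188 ± 6.90 and *Tuba1b* 178 ± 9.63, which placed both above *Tubb2b* at 155 ± 8.96. *Tubb2a*, at 55.5 ± 8.39, then ranked 7 of 10, and *Tubb3* was lowest at 39.2 ± 3.64. This second scale was chosen after seeing the data.

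The 4sU libraries gave a different order per kb of gene length. *Tubb5* had 646 ± 13.9 CPM per kb in wild type (SD, n = 3), *Tubb4b* 287 ± 13.3 and *Tubb2b* 105 ± 3.28. *Tuba1a* had 19.96 ± 0.71, rank 9 of 10, and *Tubb3* was lowest with 13.5 ± 6.65. Per kb of unshared windows *Tubb3* was again lowest and *Tuba1a* took rank 6 with 76.6 ± 2.74. The mean of *Tuba1b*, 177 ± 21.5, was above that of *Tubb2b*, 160 ± 4.99, but within its own spread. These 4sU levels sum a single-end and a paired-end run. In wild type *Tuba1b* had a mean of 36.2 CPM in the single-end and 144.4 CPM in the paired-end run. *Tubb2b* had 176.8 and 300.4 CPM. The order of *Tuba1b* and *Tubb2b* on this scale therefore depends on the run. Summed over the 6 β members, uniquely mapped reads made up 3646 ± 62.0 CPM of wild-type total RNA, and *Tubb5* alone supplied 79.5% ± 0.59 of them. The 4 α members summed to 382 ± 12.2 CPM. Both sums are lower bounds because of the shared sequence. The *Tubb5* share may be too high, because 99.9% of its windows are unshared. In *Tubb2a*, *Tubb4b* and *Tubb2b* the figure is 50.4%, 58.7% and 63.1%.

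**Figure D1:**
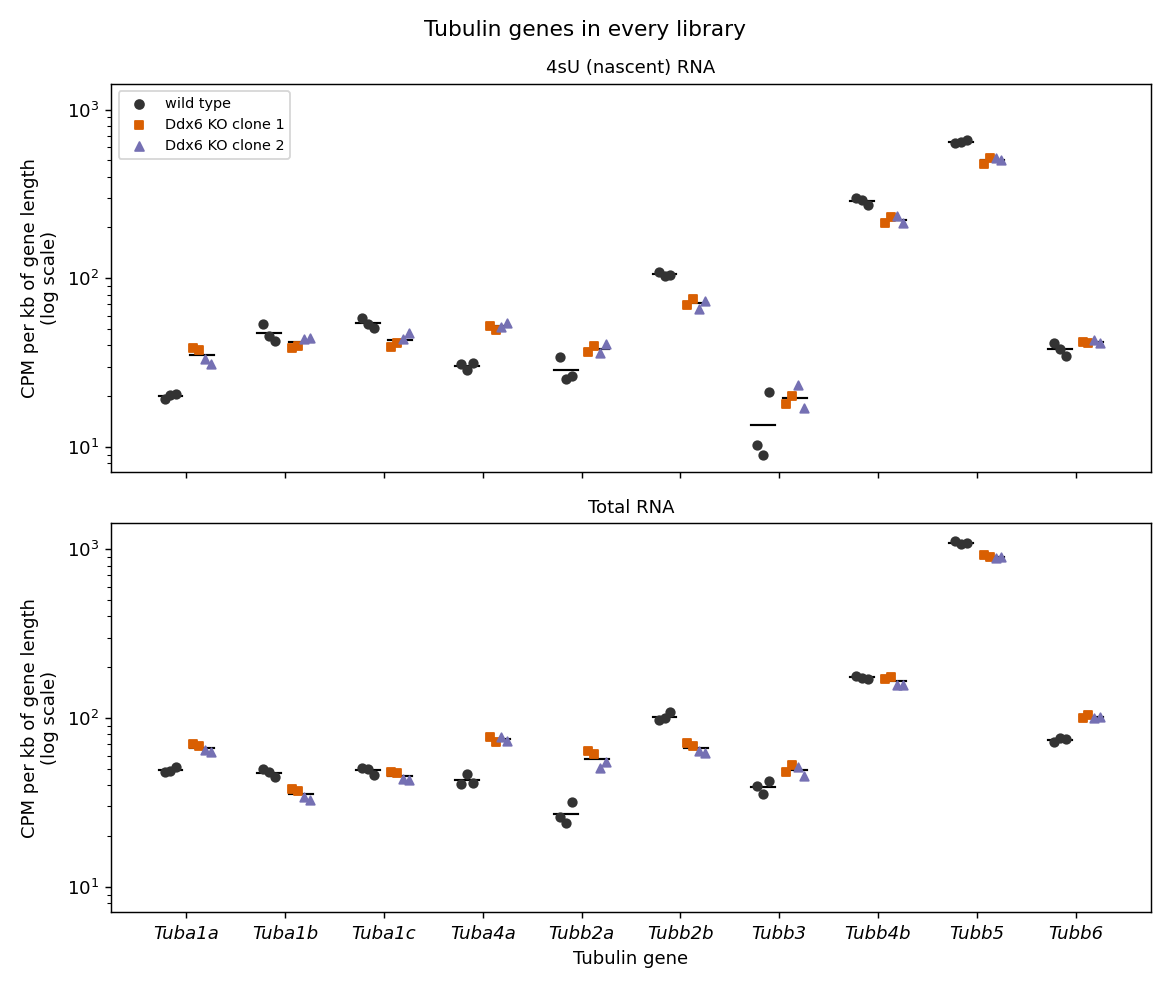
CPM per kb of gene length on a log axis, for each tubulin gene in every 4sU library (top) and total RNA library (bottom). Points are single cultures (3 wild type, 2 of each *Ddx6* KO clone) and bars are group means. *Tubb5* lies highest in both assays, and *Tubb2a* total RNA is higher in every *Ddx6* KO culture than in any wild-type culture.

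Tubulin RNAs moved in both directions in *Ddx6* KO cells. In bulk RNA, a change in the RNA of each cell and a change in the share of cells that carry it cannot be told apart. In total RNA, 4 of 10 members rose and 5 fell at an adjusted p below 0.05 (edgeR quasi-likelihood test, Benjamini-Hochberg over all tested genes), against a background of 50.5% of all 14518 genes called, with 19.5% rising and 31.0% falling. In nascent RNA, 2 rose and 5 fell, against 41.6% of all genes called, with 20.6% rising and 21.0% falling. In mRNA stability, 3 rose and 0 fell, against 12.4% of all genes called, with 3.79% rising and 8.58% falling. The *Ddx6* KO cultures lay all above or all below wild type for 9 members in total RNA and 7 in nascent RNA, against 52.4% and 41.7% of all tested genes. By other tools the stability count was 5 with DESeq2 and 3 with limma-voom, with 0 members falling in either. At an unadjusted p below 0.05, 1 member was lower in stability, *Tuba1a*. None of these changes passed an absolute log2 fold change of 1, whereas 10.1% of genes did so in total RNA, 10.9% in nascent RNA and 1.08% in stability. The median log2 change of the members was -0.22 in nascent RNA, -0.03 in total RNA and 0.10 in stability. Over all tested genes it was 0.00 in nascent RNA, -0.10 in total RNA and -0.09 in stability. The values given below for single libraries are CPM scaled by TMM, the normalization of the fit.

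**Figure D2:**
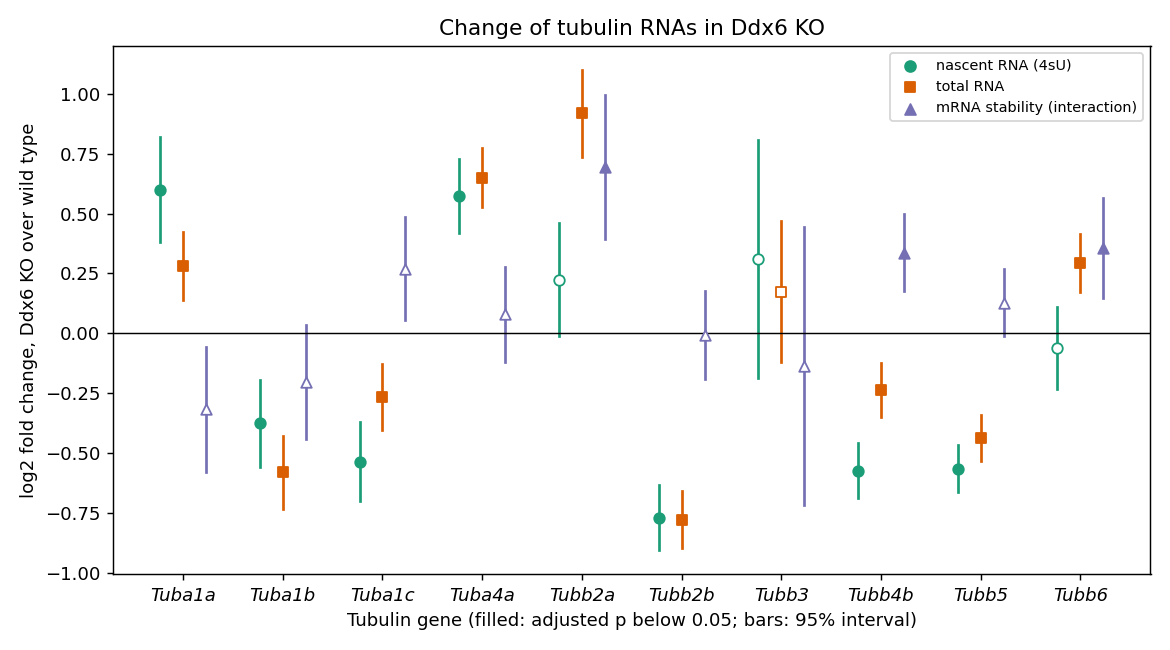
log2 fold change of *Ddx6* KO over wild type for each tubulin gene in nascent RNA (circles), total RNA (squares) and mRNA stability (triangles), with 95% intervals. Filled symbols have an adjusted p below 0.05. Filled circles and squares lie on both sides of 0, and the 3 filled triangles, for *Tubb2a*, *Tubb4b* and *Tubb6*, lie above it.

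*Tubb2a* showed the largest rise of the members in total RNA. It had 44.5, 41.3 and 55.2 CPM in the wild-type cultures, 98.8 and 94.8 CPM in clone 1, and 78.7 and 84.6 CPM in clone 2. All 4 *Ddx6* KO cultures lay above all 3 wild-type cultures, a 1.89-fold difference (log2 0.92, SE 0.09, adjusted p = 2.5e-12 from edgeR). In 4sU it had 59.8, 44.3 and 46.0 CPM in wild type against 55.2, 60.7, 54.2 and 61.5 CPM in *Ddx6* KO, and the groups overlapped. The nascent log2 difference of 0.22 (95% interval -0.01 to 0.46) missed the threshold, with an adjusted p of 0.123 from edgeR. It passed without wild-type culture 1, at 0.35 (adjusted p = 0.0292), and with scaling by library size only, at 0.43 (adjusted p = 0.0019). Its log2 change in mRNA stability was 0.69 (SE 0.15, adjusted p = 0.000953 from edgeR), and this call was kept in 21 of 21 alternatives, with values from 0.52 to 0.89.

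*Tubb2b*, its neighbour on chromosome 13, fell instead. In 4sU it had 257, 244 and 246 CPM in wild type against 143, 155, 135 and 152 CPM in *Ddx6* KO. Total RNA of this gene stood at 226, 234 and 256 CPM in wild type against 150, 143, 136 and 130 CPM in *Ddx6* KO. Every *Ddx6* KO culture was lower in both assays. The fall was 0.586-fold in nascent RNA (log2 -0.77, SE 0.07, adjusted p = 1.6e-14 from edgeR) and 0.583-fold in total RNA (log2 -0.78, SE 0.06, adjusted p = 9.1e-17). Stability differed by -0.01 (95% interval -0.19 to 0.17). Within a library, the log2 ratio of *Tubb2a* to *Tubb2b* counts in total RNA went from -2.36 ± 0.15 (SD, 3 wild-type cultures) to -0.65 ± 0.09 (SD, 4 *Ddx6* KO cultures), a 3.26-fold shift that does not depend on scaling between libraries. In 4sU the same ratio shifted 1.99-fold, from -2.33 ± 0.20 to -1.34 ± 0.03. These ratios were chosen after the values were seen and carry no test.

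*Tubb5*, the main β-tubulin of these cells, fell in both assays. In 4sU it had 1821, 1848 and 1898 CPM in wild type against 1185, 1289, 1290 and 1253 CPM in *Ddx6* KO. Its total RNA values were 3156, 3070 and 3116 CPM in wild type against 2364, 2281, 2274 and 2278 CPM in *Ddx6* KO. The groups stood apart in both assays. The nascent log2 change was -0.57 (SE 0.05, adjusted p = 1.1e-14 from edgeR) and the total RNA change -0.44 (SE 0.05, adjusted p = 1.9e-11). The stability difference of 0.13 (95% interval -0.01 to 0.27, adjusted p = 0.245) was not called, although every *Ddx6* KO culture had a higher ratio of total to 4sU RNA than every wild-type culture. It was called with DESeq2 (0.19, adjusted p = 0.00385) and with TMM within each assay (0.22, adjusted p = 0.0336).

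*Tubb4b* also fell in both assays, and less in total than in nascent RNA. In 4sU it had 515, 506 and 471 CPM in wild type against 317, 348, 352 and 320 CPM in *Ddx6* KO (log2 -0.57, SE 0.06, adjusted p = 1.7e-12 from edgeR). The total RNA libraries held 304, 300 and 295 CPM in wild type against 264, 268, 245 and 241 CPM in *Ddx6* KO (log2 -0.24, SE 0.06, adjusted p = 0.000309). The groups did not overlap in either assay. With library size as the only scaling, the total RNA change shrank to -0.08 (adjusted p = 0.242), and without the filter on low counts to -0.14 (adjusted p = 0.0861). Stability rose by 0.34 (SE 0.08, adjusted p = 0.0027 from edgeR). With clone 2 only it was 0.27 (adjusted p = 0.0786).

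*Tubb6* rose in total RNA and was not called in nascent RNA. In 4sU it had 78.9, 73.3 and 65.9 CPM in wild type against 69.1, 68.4, 71.1 and 68.9 CPM in *Ddx6* KO. Total RNA held 135, 144 and 144 CPM in wild type against 171, 177, 170 and 172 CPM in *Ddx6* KO. The groups overlapped in 4sU and stood apart in total RNA, where the rise was 0.29 (SE 0.06, adjusted p = 4.1e-05 from edgeR). The nascent difference was -0.06 (95% interval -0.23 to 0.11) and its sign turned to 0.14 with scaling by library size only. Stability rose by 0.35 (SE 0.10, adjusted p = 0.0167 from edgeR), a call that depended on the 4sU run. The single-end run alone gave 0.52 (adjusted p = 0.0019) and the re-sequencing run alone 0.05 (adjusted p = 0.902). The call was also lost without wild-type culture 1 (0.27, adjusted p = 0.149), without wild-type culture 2 (0.36, adjusted p = 0.0609) and with clone 2 only (0.34, adjusted p = 0.0998).

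*Tubb3* was not called in any contrast of the main model, and several alternatives called it. Its 4sU values in wild type were 20.8, 18.3 and 42.7 CPM, so that culture 3 stood apart from the other two, against 31.6, 35.6, 40.8 and 29.8 CPM in *Ddx6* KO. Total RNA of this gene stood at 78.5, 71.3 and 86.1 CPM in wild type against 85.8, 94.6, 92.8 and 81.5 CPM in *Ddx6* KO. The groups overlapped in both assays. Nascent RNA differed by 0.31 (95% interval -0.19 to 0.81), total RNA by 0.17 (-0.12 to 0.47) and stability by -0.14 (-0.72 to 0.44). Without wild-type culture 3, these became 0.81 (adjusted p = 6.1e-05 from edgeR), 0.25 (adjusted p = 0.0194) and -0.57 (adjusted p = 0.0442). Both RNA differences were also called with replicate number as a block (nascent 0.49, adjusted p = 0.0139, and total 0.33, adjusted p = 0.00642) and without the filter on low counts (nascent 0.36, adjusted p = 0.0319, and total 0.28, adjusted p = 0.00269).

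Among α-tubulins, *Tuba4a* and *Tuba1a* rose while *Tuba1b* and *Tuba1c* fell. *Tuba4a* had 95.7, 88.3 and 96.6 CPM in wild-type 4sU against 140, 133, 137 and 145 CPM in *Ddx6* KO. Its total RNA values were 123, 143 and 127 CPM in wild type against 211, 198, 214 and 199 CPM in *Ddx6* KO. The groups stood apart in both assays, with a log2 rise of 0.57 (SE 0.08, adjusted p = 1.1e-08 from edgeR) in nascent and 0.65 (SE 0.06, adjusted p = 1.5e-13) in total RNA. Stability differed by 0.08 (95% interval -0.12 to 0.28). Its share of all uniquely mapped α-tubulin reads in total RNA went from 31.8% (SD 1.65) over the wild-type cultures to 45.0% (SD 1.56) over the *Ddx6* KO cultures.

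*Tuba1a* ran from 34.1 to 36.6 CPM in wild-type 4sU and from 48.1 to 59.5 CPM in *Ddx6* KO 4sU, a log2 rise of 0.60 (SE 0.11, adjusted p = 8.3e-06 from edgeR). Total RNA ran from 83.6 to 90.9 CPM in wild type and from 98.9 to 111 CPM in *Ddx6* KO, a smaller rise of 0.28 (SE 0.07, adjusted p = 0.000704). Its stability difference of -0.32 (95% interval -0.58 to -0.06) was not called after adjustment (adjusted p = 0.105), although the ratio was lower in every *Ddx6* KO culture than in every wild-type culture. With scaling by library size only it passed (-0.37, adjusted p = 0.0448).

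*Tuba1b* moved the other way. It ran from 80.7 to 101 CPM in wild-type 4sU and from 63.1 to 73.1 CPM in *Ddx6* KO (log2 -0.38, SE 0.09, adjusted p = 0.000605 from edgeR). Its total RNA ran from 84.4 to 92.7 CPM in wild type and from 54.6 to 63.9 CPM in *Ddx6* KO (log2 -0.58, SE 0.08, adjusted p = 3.3e-09). Neither assay overlapped between groups. The nascent call was lost with scaling by library size only (-0.17, adjusted p = 0.117). Stability differed by -0.20 (95% interval -0.44 to 0.03). The log2 ratio of *Tuba4a* to *Tuba1b* counts within a library shifted 2.36-fold in total RNA, from 0.55 ± 0.13 in wild type to 1.79 ± 0.11 in *Ddx6* KO, and is given without a test because it was chosen after the values were seen.

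*Tuba1c* had a nascent log2 change of -0.54 (SE 0.08, adjusted p = 2.3e-07 from edgeR) and one of -0.27 in total RNA (SE 0.07, adjusted p = 0.00094). It ran from 109 to 124 CPM in wild-type 4sU and from 72.8 to 88.7 CPM in *Ddx6* KO. In total RNA it ran from 98.8 to 107 CPM in wild type and from 81.7 to 91.1 CPM in *Ddx6* KO. The groups did not overlap in either assay. The total RNA call was lost with library size as the only scaling (-0.11, adjusted p = 0.191) and without the filter on low counts (-0.17, adjusted p = 0.0863). Stability differed by 0.27 (95% interval 0.06 to 0.48, adjusted p = 0.0886) and was called with DESeq2 (0.33, adjusted p = 0.0393). It was also called with TMM within each assay (0.36, adjusted p = 0.0225), with clone 1 only (0.44, adjusted p = 0.0183) and without *Ddx6* KO clone 2 culture 2 (0.36, adjusted p = 0.0251).

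Scaling by library size only moved the median of all genes from 0.00 to 0.21 in nascent RNA and from -0.10 to 0.06 in total RNA. Among the members' nascent and total RNA changes, only that of *Tubb6* in nascent RNA changed sign under another scaling. *Tubb2b* stability, close to 0, changed sign under several settings.

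The ratio of total to 4sU RNA, scaled by TMM with 0.5 CPM added, set each member among the 14518 genes. It is relative to other genes and was given no test. In wild type its log2 value was highest for *Tubb3* (1.89, 1.93 and 1.00 in the 3 cultures) and *Tuba1a* (1.28, 1.23 and 1.30), at percentiles 92.7 and 85.5 of tested genes. It was lowest for *Tubb4b* (-0.76, -0.75 and -0.67), at percentile 31.0. *Tubb5* lay at 0.75 ± 0.04 (SD over 3 wild-type cultures), percentile 71.3, and at 0.87 ± 0.08 (SD over 4 *Ddx6* KO cultures), percentile 79.8. For the median tested gene this value was 0.07 across wild-type cultures and 0.02 across *Ddx6* KO cultures.

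The 3 genes with a called rise in stability moved up in this ranking. *Tubb2a* had ratios of -0.42, -0.10 and 0.26 in wild type and of 0.83, 0.64, 0.53 and 0.46 in *Ddx6* KO, a move from percentile 45.5 to 71.3. *Tubb6* had 0.77, 0.97 and 1.12 in wild type and 1.30, 1.37, 1.25 and 1.31 in *Ddx6* KO, a move from percentile 77.3 to 90.7. *Tubb4b* reached -0.27, -0.38, -0.52 and -0.41 in *Ddx6* KO, percentile 38.0. In each of these genes the groups stood apart, as they did for 5 of 10 members (4 higher, 1 lower in *Ddx6* KO) against 22.9% of all tested genes.

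**Figure D3:**
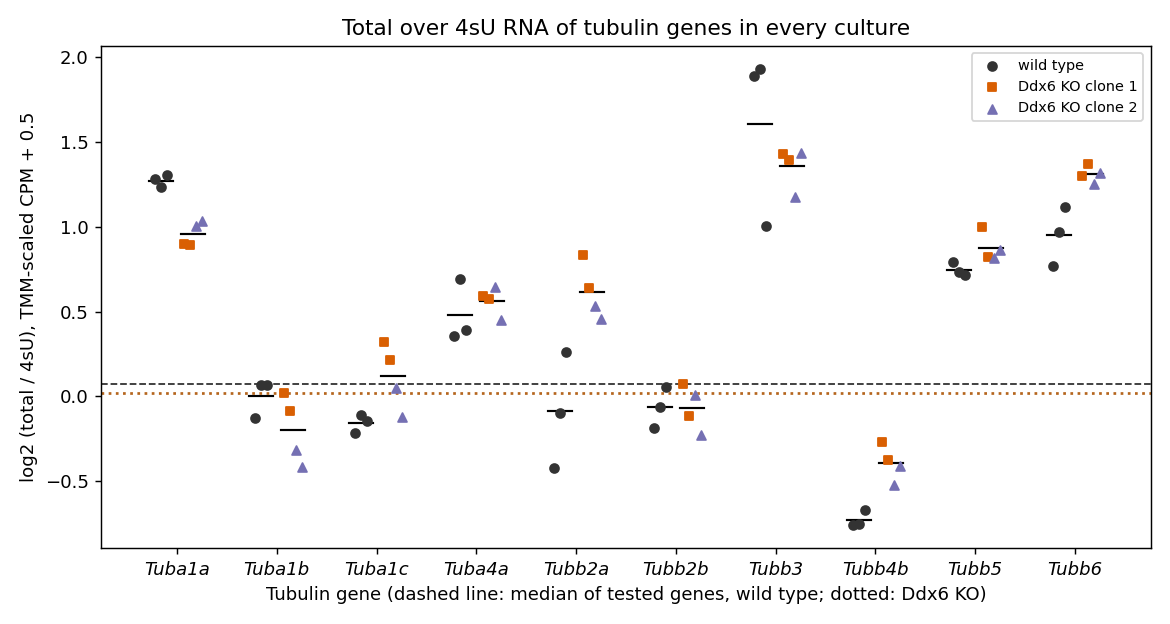
log2 ratio of total to 4sU RNA (TMM-scaled CPM plus 0.5) for each tubulin gene in every culture, with bars at the group means. The dashed and dotted lines are the medians of the tested genes, 0.07 in wild type and 0.02 in *Ddx6* KO. Ratios of *Tubb2a*, *Tubb4b*, *Tubb5* and *Tubb6* were higher, and that of *Tuba1a* lower, in every *Ddx6* KO culture than in any wild-type culture.

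Part of the ratio's size depended on how the 4sU libraries were sequenced. They were read in a single-end and in a paired-end run, whereas total RNA was read single-end. In wild type, the paired-end run gave 3.99 times the CPM of the single-end run for *Tuba1b*, 2.04 times for *Tuba1c*, 1.70 times for *Tubb2b* and 1.54 times for *Tuba1a*. For *Tubb6* it gave 0.619 times, for *Tubb5* 0.751 times and for *Tubb3* 0.755 times. In *Ddx6* KO the same quotient was 4.43 for *Tuba1b* and 0.867 for *Tubb6*. With the single-end run alone, the wild-type log2 ratio of *Tuba1b* was 1.26 ± 0.31 (SD, n = 3), percentile 84.4, against 0.00 ± 0.11 and percentile 48.0 with both runs. *Tuba1a* then ranked first among the members with 1.63 ± 0.18, and *Tubb4b* stayed last with -0.42 ± 0.08. *Tubb2a* moved from 0.12 ± 0.31 in wild type to 0.95 ± 0.10 in *Ddx6* KO on the single-end run alone.

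No tubulin difference between the *Ddx6* KO lines passed the test. None of the 10 members differed between clone 2 and clone 1 after adjustment in nascent RNA (lowest adjusted p = 0.743 from edgeR), total RNA (lowest adjusted p = 0.564) or stability (lowest adjusted p = 0.999964), against 0.172%, 0.296% and 0.00689% of all tested genes that did. At an unadjusted p below 0.05 there was 1 member in each of the assays, *Tuba1a* in nascent RNA (-0.25, 95% interval -0.49 to -0.01) and *Tubb2a* in total RNA (-0.25, 95% interval -0.45 to -0.05). The clone differences of the members spanned -0.25 to 0.18 in nascent RNA and -0.25 to 0.02 in total RNA on the log2 scale. In stability they spanned -0.33 to 0.13, with 9 of 10 members lower in clone 2, and 9 of 10 were also lower in total RNA. The share of all tested genes lower in clone 2 was not determined. These counts therefore cannot tell a trait of the tubulins from a shift of all genes. Stability was lower in clone 2 at an unadjusted p below 0.05 for *Tuba1b* (-0.33, 95% interval -0.64 to -0.03) and *Tuba1c* (-0.31, 95% interval -0.58 to -0.03). Each clone had 2 cultures, which limits how small a difference could be called.

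The machinery that reads tubulin mRNA was measured in the same libraries. All counts of list genes below stand against the shares of all tested genes called, which were 41.6% in nascent RNA, 50.5% in total RNA and 12.4% in stability, and CPM of list genes are scaled to the library total only. Of 12 autoregulation factors (*Ttc5*, *Scaper* and 10 CCR4-NOT subunits), 7 rose and 1 fell in nascent RNA, 2 rose and 4 fell in total RNA, and 5 fell in stability. The 6 of 12 called in total RNA are close to the share over all genes. *Ttc5*, which recognises the nascent peptide, was not called, with a log2 difference of -0.05 in total RNA (95% interval -0.26 to 0.16, adjusted p = 0.715 from edgeR). *Scaper*, the adaptor between TTC5 and CCR4-NOT, fell in total RNA by 0.56 on the log2 scale (adjusted p = 2.8e-06 from edgeR) and in stability by 0.91 (adjusted p = 0.000177). *Cnot1*, the scaffold that DDX6 binds, fell in total RNA by 0.40 (adjusted p = 7.6e-09) and in stability by 0.46 (adjusted p = 5.5e-05). *Cnot10* fell in total RNA by 0.41 (adjusted p = 2.5e-07), and *Cnot6*, a deadenylase, rose by 0.44 (adjusted p = 9e-08). The list's median change was 0.26 in nascent RNA and -0.27 in stability.

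RNAs of the CCT chaperonin, which folds tubulin and actin, were mostly lower in total RNA of *Ddx6* KO. In nascent RNA 4 of 8 subunits fell and 4 were not called, close to the 41.6% called over all genes, with a list median of -0.15. In total RNA 7 of 8 subunits fell, from -0.55 for *Tcp1* (adjusted p = 1.5e-13 from edgeR) to -0.43 for *Cct4* (adjusted p = 5.2e-11), and *Cct7* had a value of 0.02. The list's median was -0.46, against -0.10 over all genes. In stability 5 of 8 fell, with *Cct8* lowest at -0.43 (adjusted p = 0.000105). The mean *Cct8* level in total RNA was 848 CPM (SD 21.1) over the wild-type and 682 CPM (SD 16.7) over the *Ddx6* KO cultures. Of the 6 prefoldin subunits, which hand unfolded tubulin to CCT, 2 fell in nascent RNA and 4 in total RNA. *Pfdn2* was lowest in total RNA at -0.37 (adjusted p = 0.0037 from edgeR). In stability edgeR called 0 of 6, also 0 at an unadjusted p below 0.05.

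Of the 7 tubulin cofactors, which assemble the αβ dimer, 3 rose in nascent RNA, 2 rose and 1 fell in total RNA, and 2 fell in stability. The share called in nascent and in total RNA, 3 of 7 in each, was close to or below that of all genes. *Tbcel*, a cofactor E-like protein that destabilises tubulin, rose by 1.27 in nascent RNA (adjusted p = 3.7e-15 from edgeR) and by 0.55 in total RNA (adjusted p = 5.1e-07), while its stability fell by 0.72 (adjusted p = 0.000251). *Tbcd* fell by 0.27 in total RNA (adjusted p = 0.00027). Of 3 stathmins that could be tested, which sequester free tubulin dimers, 2 fell in total RNA, *Stmn2* by 0.45 (adjusted p = 6.6e-09) and *Stmn1* by 0.42 (adjusted p = 0.00744).

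Genes for proteins that bind microtubules moved both ways, with 6 of 16 higher and 7 of 16 lower in total RNA. *Map1b*, a microtubule-associated protein of growing axons, rose by 0.97 (adjusted p = 4.4e-20 from edgeR), and *Map1a*, its relative, fell by 0.72 (adjusted p = 3.1e-07). *Mapre3*, an end-binding protein, had the largest rise, 1.25, from 6 to 13 counts per wild-type library to 23 to 26 per *Ddx6* KO library. It reached 3 CPM in no wild-type library of either assay and passed the filter only through *Ddx6* KO, which limits what its call means. In stability 4 fell, with *Clasp2* lowest at -0.44 (adjusted p = 0.0104). Of 14 genes for enzymes that modify tubulin, 2 rose and 4 fell in total RNA, a share below that of all genes. *Vash2*, a subunit of a tubulin carboxypeptidase, rose by 1.12 (adjusted p = 0.00132) and *Vash1* fell by 0.70 (adjusted p = 0.00118). Coverage of *Vash2* was low, with 11 to 18 counts per wild-type and 21 to 54 per *Ddx6* KO total RNA library. In stability edgeR called 0 of 14, and at an unadjusted p below 0.05 there were 1 higher and 2 lower.

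**Figure D4:**
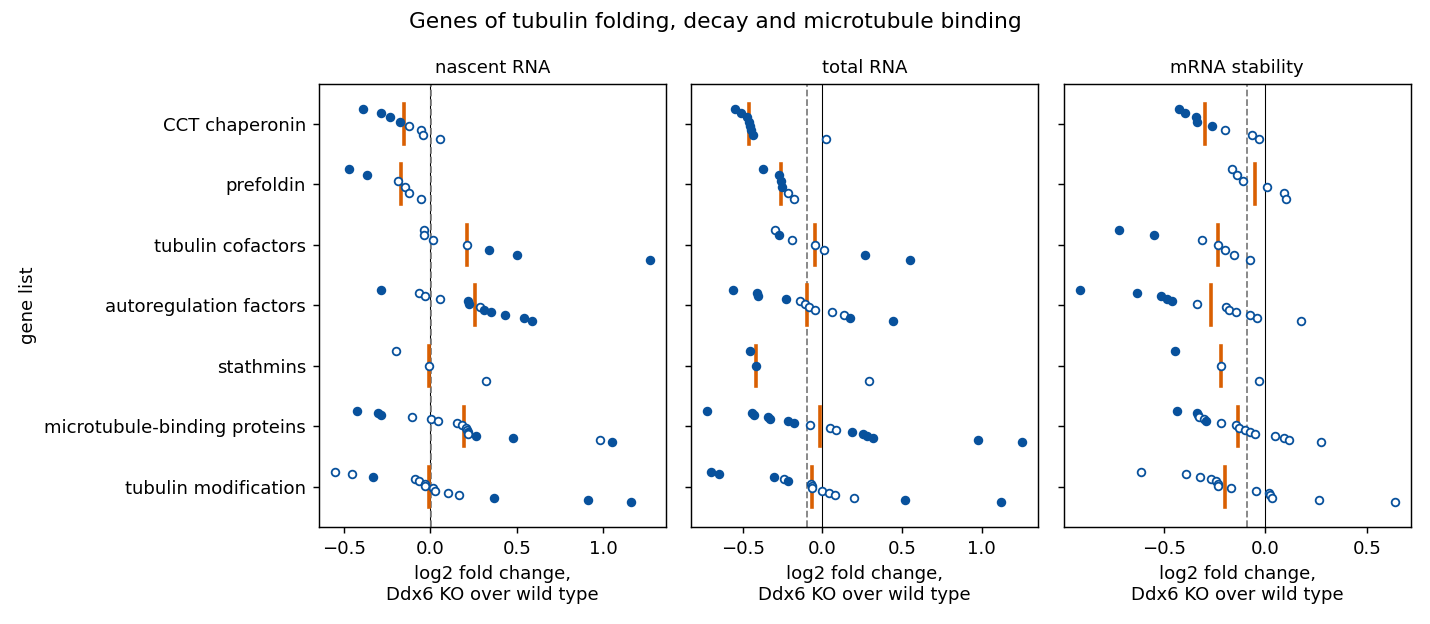
log2 fold change of *Ddx6* KO over wild type for genes of 7 lists in nascent RNA, total RNA and mRNA stability. Points are genes (filled: adjusted p below 0.05), orange bars are list medians and dashed grey lines the medians of all tested genes. In total RNA 7 of 8 CCT genes lie between -0.55 and -0.43.

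Of 10 further tubulin genes, 7 could be tested. In total RNA 4 rose and 1 fell. The best covered gene that rose was *Tuba3a*, an α-tubulin best known from testis, whose mean was 44.9 CPM (SD 6.06) over the wild-type and 72.7 CPM (SD 14.1) over the *Ddx6* KO cultures (log2 0.53, adjusted p = 0.00765 from edgeR). *Tubb4a* had 0 to 4 counts per wild-type library and 12 to 17 per *Ddx6* KO library in total RNA. *Tuba3b* had 3 to 5 counts per wild-type and 14 to 27 per *Ddx6* KO library, and *Tubg2* 7 to 11 and 17 to 36. These genes are the others called as rising, but none reached 3 CPM in any wild-type library of either assay. They passed the filter only through *Ddx6* KO libraries, where they are higher, which limits what their calls mean. *Tubg1*, the γ-tubulin of centrosomes, fell by 0.27 (adjusted p = 0.00453). *Tuba3a* and *Tuba3b* lie on chromosome 6, whose 735 tested genes had a median change of 0.43 in total RNA and 0.53 in nascent RNA, and the part of this in their values was not tested. No member lies on that chromosome. *Tubal3* had 0 counts in every library.

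Across the 14 libraries, the log2 levels of members were set against the 10244 genes with at least 3 CPM in all of them. Both assays and genotypes enter these correlations, so they are descriptions without a test. The gene most like *Tubb5* was *Rpl4*, a ribosomal protein gene (r = 0.996), and that most like *Tuba1c* was *Rpl13a* (r = 0.966). *Tuba4a* was closest to *Cpe* (r = 0.985), *Tuba1b* to *Ism2* (r = 0.953), *Tubb2a* to *Perp* (r = 0.922) and *Tubb2b* to *Coil* (r = 0.985). *Tubb3* was closest to *Noc3l* (r = 0.989), *Tubb4b* to *Bcl2l11* (r = 0.985) and *Tubb6* to *Ddx54* (r = 0.988). The summed members were closest to *Eef2*, a translation elongation factor (r = 0.997), *Snora73b* (r = 0.994) and *Rplp1* (r = 0.994).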

How the data were processed

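The authors trimmed reads with Cutadapt 1.14, kept reads that STAR 2.5.3a mapped uniquely to mm10, and counted them per gene by strand with featureCounts 1.5.3 on Gencode M14. The deposited values are raw counts, beside a gene length in bases. Counts of both 4sU runs were added, as the study's methods do, and library totals served as depth. Counting 3 reads corresponds to between 0.407 and 1.23 CPM, and covers counting error only.

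One edgeR 4.0.16 quasi-likelihood model (R 4.3.3, robust, TMM over 14 libraries) held genotype, assay and their interaction for 14518 genes. The study used limma. p values were adjusted by Benjamini-Hochberg within each contrast. Clones were compared in a 6-group model. The code was tested on simulated data: of 100 genes planted at a log2 change of 0.5 in total RNA only, among 14518, it called 85 for total RNA and 44 for stability, and at 1 it called 100 and 94, beside 14 and 7 unchanged genes and 0 nascent calls. Planted in both assays, it called 65 at 0.5 and 100 at 1 for nascent RNA, beside 17 unchanged genes, and 0 for stability. The planted genes were drawn only from genes with higher mean counts, and no difference between clones was simulated. These rates therefore do not extend to genes with few counts.

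Per the study's methods, extracted RNA was divided between the 4sU pulldown and total RNA. The 4sU and total RNA libraries of a culture were matched here by the genotype, clone and number in their titles. Their deviations from the group means correlated with a mean r of 0.0772 across 10244 genes (range 0.00377 to 0.117), and culture as a block left 3 stability calls. Alternatives were DESeq2 1.42.0, limma-voom 3.58.1, other scalings and filters, each run or clone alone, replicate blocks and each culture left out. Named genes are all members, list genes that passed the test or changed most, and the gene most correlated with each member. The one for *Tuba1a* is not reported here. *Ttc5*, *Cct7*, *Tubal3*, *Sox17*, *Gata6* and *Sox7*, and the ratios between members, were named after values were seen. Members and lists were chosen with earlier results of these data known. The first wild-type 4sU series, polysome fractions and *Dgcr8* KO cells are not analysed here.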

Additional observations from a re-analysis of the deposited data

Results flagged for a closer look

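In 2 of 30 groups of 4 *Ddx6* KO cultures, 1 culture stood far from the others, and chance alone flags about 1 in 20 such groups. For *Tubb5* in total RNA it was clone 1 culture 1, at 11.2 on the log2 scale of TMM-scaled CPM plus 0.5, with the other three at 11.15 to 11.16. For the *Tubb3* log2 ratio of total to 4sU RNA it was clone 2 culture 1, at 1.17, with the others at 1.40 to 1.43.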

How the results depend on the processing

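The count of members called was 7 in nascent RNA, 9 in total RNA and 3 in mRNA stability. With an absolute log2 fold change above 1 also required, each became 0. The stability count became 5 with DESeq2, 5 with TMM within each assay and 1 with clone 2 only. With each culture left out in turn, the counts ran from 7 to 8 in nascent RNA, from 9 to 10 in total RNA and from 2 to 4 in stability. Replicate number as a block gave 8, 10 and 3. Deviations of wild-type and *Ddx6* KO cultures that share a number correlated at a mean r of 0.0127 (4sU) and 0.0287 (total RNA). The highest single values were 0.132 (4sU) and 0.128 (total RNA). Libraries matched as the same culture, which share an extraction per the study's methods, reached a mean r of only 0.0772. These correlations therefore cannot tell whether the numbers pair wild-type with *Ddx6* KO cultures. The culture block changed no stability call. *Tubb6* nascent RNA reversed with library size only (0.14) and the re-sequencing run alone (0.24). *Tubb3* stability reversed without wild-type culture 1 (0.0085) or 2 (0.035), and was -0.57 without culture 3. *Tubb2b* stability turned positive with DESeq2 (0.049), TMM within each assay (0.082), DESeq2 size factors (0.049), no filter (0.038), 3 CPM in every library of 1 assay (0.026), the re-sequencing run alone (0.021) and clone 1 only (0.048), and ran from -0.064 to 0.057 with each culture left out. The causes were not tested. The count of members that differ between clones in nascent or total RNA stayed at 0 with library size only. In the simulated data, stability changes of 0.5 were called for 44 of 100 planted genes, all with higher mean counts.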
